A study of Rattus norvegicus with 6 samples.

Results

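The regions described here are the accessible chromatin peaks that were called in forskolin-treated wild-type INS-1 cells and in none of the other 5 libraries, at a level of at least 2 FPKM (reads in a peak, scaled to its length and to all reads in the library's peaks). They number 14159 of 220487 merged peaks outside the mitochondrial chromosome, or 6.42% of all peaks, and are called WT FSK-only peaks below. The peaks were chosen by measured values, namely the calls in the 6 libraries and the FPKM of the WT FSK library, so their restriction to WT FSK and their level describe the selection and are not a result.

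In ATAC-seq the transposase Tn5 cuts DNA that is not packed away, and dense reads mark open chromatin. INS-1 cells derive from a rat insulinoma and serve as a model of the beta cell. WT cells and Med14 S983A cells, in which a CRISPR edit replaced a serine of the Mediator subunit Med14 with alanine, were moved to serum-free medium and left without stimulus (CON) or exposed to Exendin-4 (Ex-4, 10 nM) or forskolin (FSK, 10 µM), each treatment for 1 h. Each of the 6 conditions is 1 library, so there is no replicate check, no test could be made, and every difference describes these libraries. The mutant lines were grown from sorted single cells, and the sources used here do not tell which of the 2 lines gave the 3 mutant libraries.

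FSK activates adenylate cyclase directly, and Ex-4 raises cAMP through the GLP-1 receptor. cAMP activates protein kinase A, which phosphorylates CREB, and CREB with its coactivators opens and activates cAMP-responsive enhancers, often far from promoters. Mediator links factors bound at enhancers to RNA polymerase II, and Med14 is its scaffold subunit. A peak that appears within an hour of stimulation can be an enhancer, a promoter or a stretch of transcribed chromatin. Genes, promoters, sequences and motifs under these peaks were not analysed here, because a genome and annotation of the build of the files, rn6, were not used.

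WT FSK was the deepest library. Reads in peaks, recovered from the steps of the smallest values, came to 251100000 there and to between 134300000 (Med14 S983A CON) and 163000000 (Med14 S983A FSK) in the other 5 libraries, so that WT FSK held between 1.54 and 1.87 times the reads of any other library. The deposited table lists a peak at 0 in a library whose own peak list lacks it. A value of 0 therefore says that no peak was called there, and not that no read fell there. Of the WT FSK-only peaks, 14127 were listed at 0 in all 5 other libraries. The remaining 32 had a value in at least 1 other library without being called in it, none above 1.82 FPKM, and a median of 18.5 bp separated them from their nearest other peak.

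FSK, and WT FSK above all, had more peaks of its own than any other condition. The same rule, a call in 1 library only at 2 FPKM or more, found 2578 peaks in WT CON (1.17% of all peaks) and 1513 in WT Ex-4 (0.686%). In Med14 S983A cells it found 2288 peaks in CON (1.04%), 2829 after Ex-4 (1.28%) and 7254 after FSK (3.29%). WT FSK thus had 5.49 times the count of WT CON, 9.36 times that of WT Ex-4 and 1.95 times that of Med14 S983A FSK. The FSK library of the mutant came next. It held 4.79 times as many as WT Ex-4 at 1.03 times the depth. WT Ex-4 had the fewest such peaks of all libraries, and these libraries differ in genotype and treatment. Against WT CON the counts were 7254 and 2578 at 1.08 times the depth. Against the Ex-4 library of the mutant they were 7254 and 2829, at 163000000 and 147100000 reads in peaks.

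The gap between WT FSK and the other libraries was wider among stronger peaks. At 10 FPKM or more, WT FSK had 960 peaks of its own, Med14 S983A FSK 298, WT CON 107, Med14 S983A CON 100, Med14 S983A Ex-4 73 and WT Ex-4 35. At 20 FPKM or more the counts were 127, 49, 13, 12, 11 and 2 in the same order of libraries. When the same number of reads was asked of every library instead, 67 or more (what a peak of 134 bp holds at 2 FPKM in WT FSK), WT FSK had 14421 peaks of its own against 3357 in Med14 S983A FSK and between 589 and 1127 in the others. A limit on reads favours the deeper library, and a limit on FPKM does not fix the reads needed for a call. The part of depth in these counts was not tested.

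**Figure D1:**
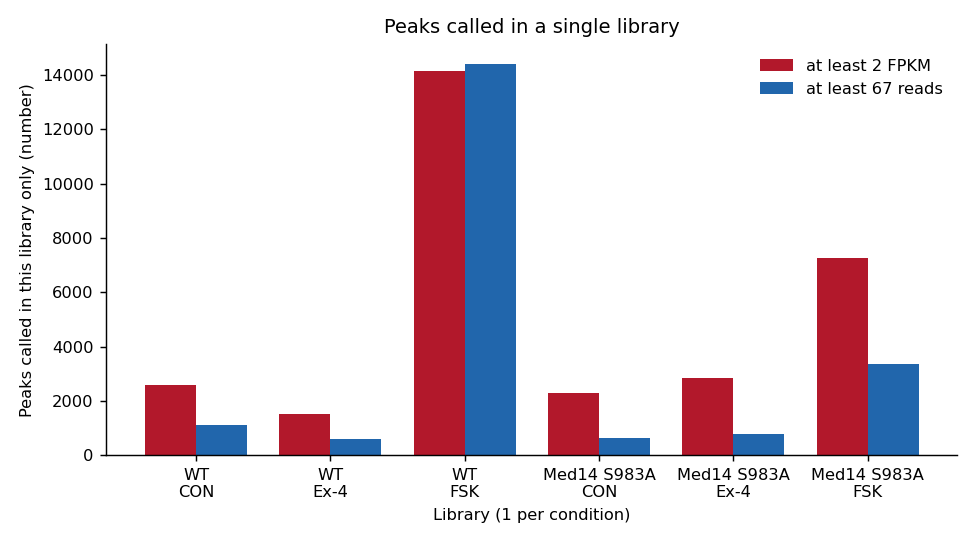
Bars give the number of peaks called in 1 library only, for the 6 libraries on the horizontal axis, at 2 FPKM or more (red) or at 67 reads or more (blue). WT FSK reached 14159 and 14421, Med14 S983A FSK 7254 and 3357, and no other library passed 2829.

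The lower end of calling was compared between libraries on both scales. Over all called peaks of 111 to 130 bp, the 5th percentile was 1.40 FPKM in WT FSK, 1.31 FPKM in WT CON and 1.52 FPKM in Med14 S983A FSK, which corresponded to 42, 24 and 30 reads. In FPKM this end was therefore between that of the other 2 libraries in WT FSK in this length class, and in reads it was higher. In longer classes WT FSK could be the lowest of these in FPKM. Over 160 and up to 200 bp it had 1.34 FPKM, WT CON 1.35 and Med14 S983A FSK 1.53. Over 200 and up to 300 bp the values were 1.16, 1.21 and 1.29 FPKM. The 10th percentile of called peaks ran from 1.34 to 1.85 FPKM over 5 libraries and 6 length classes, all below the limit of 2 FPKM, so that by the rule every WT FSK-only peak lies above it, and nothing is read from this.

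Against higher percentiles the selected level can be placed, as a description that rests on the value used for selection. Above the 25th percentile of called peaks of the same length were 91.8% and 94.3% against WT CON and WT Ex-4, and 82.4%, 92.7% and 88.0% against the CON, Ex-4 and FSK libraries of the mutant. Between 39.0% (Med14 S983A CON) and 54.6% (WT Ex-4) were above the median.

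At an equal FPKM the other libraries would have held fewer reads in the same peaks. The WT FSK-only peaks held between 49 and 1898 reads in WT FSK, with a median of 110. The same levels would give a median of 66 reads at the depth of WT CON and 70 at that of WT Ex-4, and 59, 64 and 71 reads at the depths of the CON, Ex-4 and FSK libraries of the mutant. These are the selected values rescaled by depth. What reads the other libraries hold at these places was not measured by the deposited values.

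WT FSK-only peaks were short and weak beside the rest of the WT FSK library. Their FPKM ran from 2 to 46.5 with a median of 2.92, and 1 in 20 was above 11.5 FPKM. All peaks called in WT FSK had a median of 4.41 FPKM, and peaks called in all 6 libraries, called shared peaks below, had 8.42 FPKM in WT FSK. Within WT FSK, the working name of stronger peaks therefore holds only beside the 7133 peaks of WT FSK alone under 2 FPKM, which had a median of 1.65 FPKM. Length ran from 96 to 1744 bp with a median of 134 bp, against 363 bp for all WT FSK peaks and 584 bp for shared peaks. These are lengths after merging over libraries. Every WT FSK-only peak rests on a single call and no shared peak does, so the lengths do not compare like with like. Of the WT FSK-only peaks, 8794 (62.1%) were under 150 bp, against 13.2% of all WT FSK peaks, and 33 exceeded 500 bp. In all they took 0.905% of the reads in WT FSK peaks. The single-library peaks of the other libraries, at 2 FPKM or more, were under 150 bp more often, from 69.8% (WT CON) to 79.9% (Med14 S983A Ex-4). Their median levels, each in its own library, ran from 2.59 FPKM (WT Ex-4) to 2.79 FPKM (Med14 S983A FSK). Beside these sets the WT FSK-only peaks were neither short nor weak.

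Peaks with the most similar calls differed from them more in length than in level. The 12730 peaks at 2 FPKM or more in WT FSK that both FSK libraries called, and no other library did, had a median of 3.74 FPKM and 197 bp. Those of WT FSK and WT Ex-4 alone (1565 peaks) had 3.25 FPKM and 186 bp, and those of WT FSK and WT CON alone (823 peaks) 2.86 FPKM and 157 bp. These 3 sets were longer than the WT FSK-only peaks, and the last was at a like level. None of their peaks rests on a single call, so the merged lengths again do not compare like with like. The 7254 peaks of Med14 S983A FSK alone had a median of 2.79 FPKM in that library and 120 bp, both slightly lower. Short peaks of WT FSK, under 150 bp, were also taken without an FPKM limit. Their median level rose with the number of libraries that called them, from 2.37 FPKM for 1 library through 2.80, 3.07, 3.18 and 3.65 to 5.42 FPKM for all 6. A stronger peak is more readily called, so nothing is read from this rise.

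**Figure D2:**
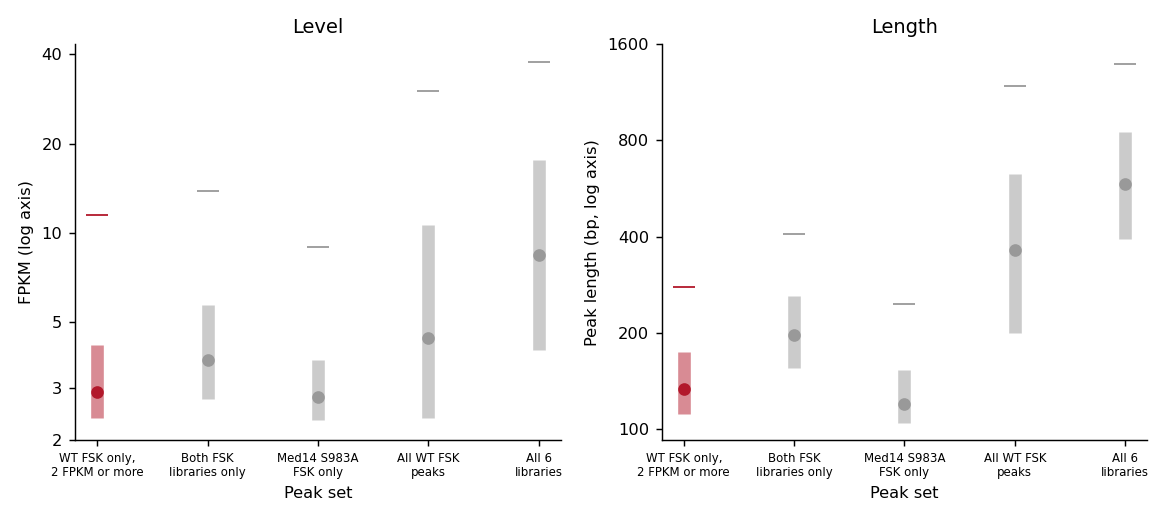
Points give the median, wide bars the quartiles and dashes the 95th percentile of FPKM (left, log axis) and of peak length in bp (right, log axis) for 5 sets of peaks. FPKM are those of WT FSK, except for peaks of Med14 S983A FSK alone, where they are of that library. WT FSK-only peaks (red) have a median of 2.92 FPKM and 134 bp, below those of all WT FSK peaks at 4.41 FPKM and 363 bp.

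At the threshold of the rule, 3 peaks stood at exactly 2 FPKM, each of 213 bp with 107 reads, on chromosomes 4, 10 and 13. The 3 nearest below had 1.999, 1.999 and 1.997 FPKM with 126, 124 and 164 reads. Counting error alone gave the first 3 a 95% interval from 1.64 to 2.42 FPKM and the last a range from 1.70 to 2.33 FPKM, so the intervals of peaks on both sides of the limit overlapped.

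The strongest WT FSK-only peaks lay beside peaks that were open in every library. The highest was chr16:66363151-66363250 (rn6), a peak of 99 bp with 1155 reads and 46.5 FPKM in WT FSK (95% Poisson interval 43.8 to 49.2, counting error only) and listed at 0 elsewhere. Its neighbour at a gap of 167 bp, 980 bp long and called in all 6 libraries, had 49.9 FPKM in WT CON, 44.6 in Ex-4-treated and 30.1 in FSK-treated WT cells. In the mutant it had 27.4 FPKM in CON, 25.2 after Ex-4 and 20.7 after FSK. The neighbour was thus lower in FSK than in CON in both genotypes, while the short peak next to it was called in WT FSK alone.

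Next came chr19:31939539-31939698 with 40.8 FPKM (38.9 to 42.9), 1740 bp from a shared peak that ranged from 58.3 FPKM in WT CON to 71.7 FPKM in Med14 S983A FSK. The third was chr12:50385025-50385193 with 38.9 FPKM (37.1 to 40.8), 921 bp from a shared peak of 38.3 to 44.9 FPKM over the 6 libraries. The fourth was chr7:116779956-116780062 with 38.6 FPKM (36.3 to 41.0). Its neighbour at 447 bp rose from 41.1 FPKM in WT CON to 50.8 with Ex-4 and 55.4 with FSK, and from 39.0 to 46.9 and 55.5 FPKM in Med14 S983A, so the neighbour was higher after FSK in both genotypes while the short peak was called in WT FSK alone.

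Over the 10 highest, FPKM ran from 30.8 to 46.5, length from 99 to 208 bp and reads from 885 to 1667. In 9 of these 10 the nearest peak was called in all 6 libraries, at gaps of 140 to 3508 bp. The exception was chr14:82353941-82354051, with 32.0 FPKM (30.0 to 34.2). Its nearest peak, 1732 bp away and 143 bp long, was called in both FSK libraries and in no other, at 31.0 FPKM in WT FSK and 32.3 FPKM in Med14 S983A FSK. There a peak called only in the FSK libraries of both genotypes stood at the level of the peak called in WT FSK alone.

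By reads, the largest WT FSK-only peak was chr12:50311393-50311703, 310 bp long with 1898 reads and 24.4 FPKM (23.3 to 25.5). Its neighbour 561 bp away was called in the 3 WT libraries, at 53.5 FPKM in CON, 56.8 after Ex-4 and 56.9 after FSK, and was listed at 0 in all 3 mutant libraries. The calls of this neighbour set the genotypes apart without stimulus, and its level hardly differed between the treatments of WT. The longest WT FSK-only peak, chr10:6330798-6332542, spanned 1744 bp at 3.32 FPKM (3.15 to 3.49) and lay 98119 bp from the nearest shared peak. The shortest length, 96 bp, was that of 262 peaks, of which the first, chr1:32772854-32772950, had 2.16 FPKM (1.61 to 2.83).

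Nearness to a shared peak rose with level. Of the 7453 WT FSK-only peaks from 2 to 3 FPKM, 13.2% lay within 2 kb of a shared peak. This share was 21.1% from 3 to 4 FPKM, 39.3% from 4 to 6, 60.2% from 6 to 10, 72.4% from 10 to 20 and 78.7% among the 127 peaks from 20 FPKM up. The shared peak nearest to them was stronger too, with a median WT FSK level of 6.75 FPKM beside the weakest class and 37.6 FPKM beside the highest. Over the 3654 WT FSK-only peaks within 2 kb of a shared peak, the log2 levels of both in WT FSK correlated with Pearson's r = 0.74 and Spearman's rho = 0.75. This is a description across peaks of 1 library, whose depth and scale both values share. Other sets of peaks were not split by level in this way, so the climb is not shown to be particular to WT FSK-only peaks. Length did not go with level (r = -0.019, n = 14159), and the median length was between 126 and 139 bp in every level class.

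**Figure D3:**
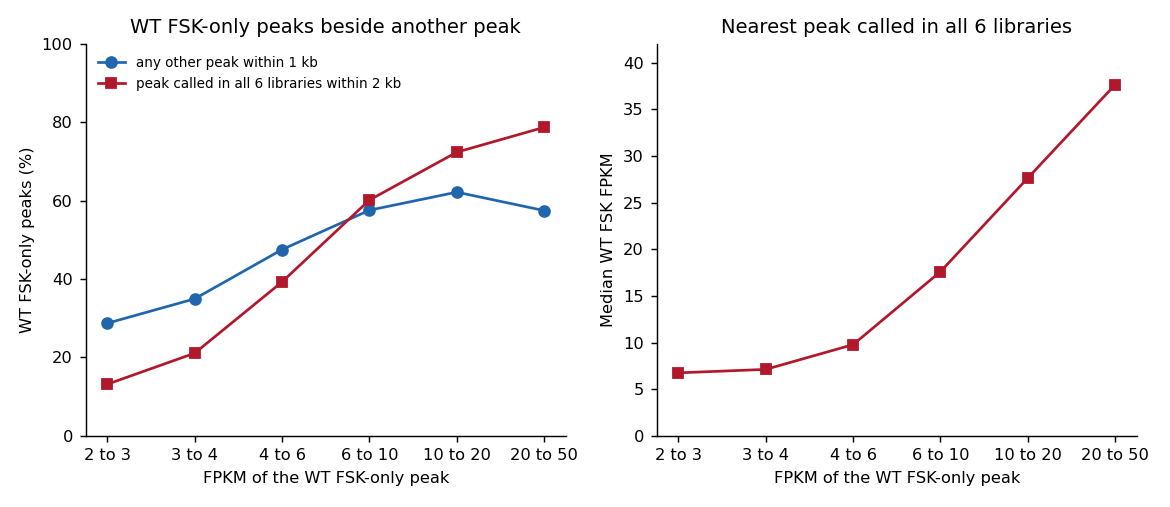
The left panel gives the percent of WT FSK-only peaks with any other peak within 1 kb (blue) or with a peak called in all 6 libraries within 2 kb (red), by their WT FSK FPKM. The right panel gives the median WT FSK FPKM of the nearest peak called in all 6 libraries. The red share climbs from 13.2% to 78.7% and the neighbour's level from 6.75 to 37.6 FPKM, while the blue share ends at 57.5%.

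The weak end, in contrast, was the more isolated. Of all WT FSK-only peaks 8848 (62.5%) had a shared peak within 10 kb, with a median gap of 6096 bp, against 64.3% and 6092 bp for all WT FSK peaks. More than 100 kb from any shared peak lay 665 (4.70%), against 2.97% of all WT FSK peaks and 1.65% of the peaks of Med14 S983A FSK alone. Peaks of WT CON alone and of WT Ex-4 alone, at 2 FPKM or more, gave like shares of 4.19% and 4.49%. Those of Med14 S983A CON alone and Ex-4 alone gave 2.01% and 1.98%. The share was therefore not particular to WT FSK-only peaks. The median gap to a shared peak was 10004 bp from 2 to 3 FPKM and 1011 bp from 20 FPKM up.

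Peaks next to the WT FSK-only peaks were more often called in WT alone, except beside the strongest. A peak outside the set lay within 2 kb of 7137 of them (50.4%), and 43.4% of these neighbours were called in all 6 libraries. For the sets compared below, WT FSK-only peaks were also left out as neighbours, while peaks of the compared set itself were allowed. The shares therefore do not compare fully like with like. Neighbours called in all 3 WT libraries and in no mutant library made up 8.15% (582), against 5.25% of the neighbours of all WT FSK peaks and 1.85% of the neighbours of peaks of Med14 S983A FSK alone. Beside WT FSK-only peaks of at least 10 FPKM the share was 4.28% (34 of 794), below that of all WT FSK peaks. Neighbours called in all 3 mutant libraries and in no WT library made up 0.588% (42), against 2.21% and 4.29%. Neighbours of both FSK libraries alone made up 8.81%, against 7.62% beside all WT FSK peaks.

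Shared peaks near WT FSK-only peaks were also lower in Med14 S983A somewhat more often, with and without FSK. Within 2 kb, 14.6% of 4044 shared peaks were at least 2-fold lower in Med14 S983A FSK than in WT FSK, against 11.4% of all 86465 shared peaks that averaged 1 FPKM or more over the libraries. Between the CON libraries, whose FPKM the rule did not use, 13.2% were at least 2-fold lower in the mutant, against 10.5%. At least 2-fold higher in the mutant were 2.77% against 4.07% with FSK and 3.19% against 4.90% in CON. The genotype difference beside these peaks was therefore present before stimulation in the same direction. Fold differences here and below are on the scale of log2(FPKM + 0.5).

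Within 10 kb of WT FSK-only peaks, shared peaks were higher after FSK more often in both genotypes. Of 14915 such shared peaks, 1131 (7.58%) were at least 2-fold higher in WT FSK than in WT CON, against 5.94% of all shared peaks. In Med14 S983A, 890 (5.97%) were at least 2-fold higher in FSK than in CON, against 4.56%. At least 2-fold lower were 2.94% in WT, against 3.65%, and 3.19% in Med14 S983A, against 4.28%. Ex-4 gave smaller shares in the same direction, 0.811% against 0.448% in WT and 0.845% against 0.634% in Med14 S983A. At least 2-fold lower with Ex-4 were 9 shared peaks near WT FSK-only peaks in WT (0.0603%), against 0.0625% of all shared peaks. In Med14 S983A they were 10 (0.0670%), against 0.0497%, so the mutant share was not lower near these peaks. These counts are small. The WT FSK library gives both the peaks of the rule and one side of the WT comparison, and the mutant comparison does not use its FPKM.

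Nearness to peaks of another FSK library gave like values. Within 10 kb of the peaks of Med14 S983A FSK alone, 7.07% of shared peaks opened 2-fold in WT and 6.20% in Med14 S983A. Within 10 kb of the peaks of WT CON alone, the shares were 6.21% and 5.17%, closer to those of all shared peaks. Within 2 kb of a WT FSK-only peak the shares were 6.11% in WT and 4.92% in Med14 S983A, near the values of all shared peaks. Within 2 kb of one of at least 10 FPKM they were 5.35% and 4.53%, against 5.94% and 4.56% of all. The excess in the share opened 2-fold was thus larger at 10 kb than at 2 kb, and absent beside the strongest peaks. Other measures still differed beside those of at least 10 FPKM. There 1.16% of shared peaks were at least 2-fold lower with FSK in WT and 1.05% in Med14 S983A, against 3.65% and 4.28% of all. The median log2 change was -0.083 in WT and -0.0091 in Med14 S983A, against -0.13 and -0.12.

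A part of the WT FSK-only peaks lay in dense groups. With neighbouring peaks of the set joined over gaps of up to 25 kb, 8116 stood alone, 4974 were in 2123 groups of 2 to 4, and 1069 (7.55%) were in 140 groups of 5 or more. Joined in the same way, the peaks of Med14 S983A FSK alone gave 61 groups of 5 or more, which held 5.36% of them, and those of WT CON, WT Ex-4, Med14 S983A CON and Med14 S983A Ex-4 alone gave at most 1 such group each. These sets differ in size, on which the number of groups depends, and the count for WT FSK changed with the gap allowed, to 40 groups at 10 kb and 329 at 50 kb.

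Inside the 140 groups, shared peaks were higher after FSK more often than over the genome. These spans held 2891 peaks, of which 2589 were called in WT FSK, 1254 in Med14 S983A FSK and 772 in WT CON. The 1069 WT FSK-only peaks among them are by the rule called in WT FSK alone, so these counts in part restate the selection. Of the 462 shared peaks inside, 108 (23.4%) were at least 2-fold higher in WT FSK than in WT CON, against 5.94% of all shared peaks, and 4 were at least 2-fold lower. In Med14 S983A, 74 (16.0%) were at least 2-fold higher with FSK, against 4.56%, and 3 lower. Their median log2 change was 0.31 in WT and 0.16 in Med14 S983A, against -0.13 and -0.12 over all shared peaks. With Ex-4 the shares were 3.896% in WT and 5.19% in Med14 S983A, against 0.448% and 0.634%. The excess was smaller in wider groups. At gaps of 50 kb the shares after FSK were 14.1% of 2507 shared peaks in WT and 11.2% in Med14 S983A, with medians of 0.057 and 0.046, and at 10 kb they were 30.6% and 19.4% of 36. Without the 3 largest groups of the 25 kb grouping they were 21.9% in WT and 14.5% in Med14 S983A with FSK. Inside the 61 groups of Med14 S983A FSK alone, 15.4% of 136 shared peaks rose 2-fold in WT and 14.7% in Med14 S983A.

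The group with the highest levels lay on chromosome 1. At chr1:52634964-52788115 (rn6), 153 kb held 127 merged peaks, of which 23 were WT FSK-only peaks at 8.45 to 16.4 FPKM and 28 were called in both FSK libraries alone. WT cells had 18 called peaks in this span in CON, 49 after Ex-4 and 115 after FSK, and Med14 S983A cells had 26, 65 and 93. The length covered by called peaks rose from 11.1 kb in WT CON to 25.4 kb after Ex-4 and 42.4 kb after FSK, and from 15.1 kb to 30.6 and 38.5 kb in Med14 S983A. The count and length for WT FSK include the 23 WT FSK-only peaks, which by the rule no other library called. Both genotypes therefore opened this span, with Ex-4 between CON and FSK.

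The 12 shared peaks of the span had like values in both genotypes. Their median was 2.48 FPKM in WT CON, 6.58 after Ex-4 and 15.3 after FSK, and 2.39, 8.33 and 14.8 FPKM in Med14 S983A. The median log2 change with FSK was 2.68 in WT and 2.54 in Med14 S983A. One of them, chr1:52707415-52708240, went from 0.632 FPKM in WT CON to 6.52 after Ex-4 and 19.9 after FSK, and from 2.66 to 9.66 and 21.4 FPKM in Med14 S983A. Another, chr1:52771160-52771693, had 6.51 FPKM in WT CON and 6.49 in WT FSK, so the rise was not uniform along the span. Both were picked here after their values were seen. The 23 WT FSK-only peaks of this span thus stood among peaks that the mutant opened to a like level, and held 300 to 734 reads each.

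The largest group by number, chr19:12707663-12917802, behaved otherwise. Its 210 kb held 54 peaks, all called in WT FSK, of which 40 were WT FSK-only peaks at 2.02 to 7.09 FPKM. WT CON and WT Ex-4 each called 8 of the 54, Med14 S983A CON 6, Med14 S983A Ex-4 4 and Med14 S983A FSK 6. By the rule, the 40 WT FSK-only peaks could add to the count of WT FSK alone. The strongest peak inside, chr19:12734442-12735351, had 21.3 FPKM in WT CON, 30.5 after Ex-4 and 72.4 after FSK. In Med14 S983A the table lists it at 0 without FSK, and it had 0.324 FPKM after FSK. This peak was singled out after its values were seen. It was called in WT without stimulus. Med14 S983A FSK called it at this low value, and the CON and Ex-4 libraries of the mutant did not call it. A listed 0 does not say that no read fell there.

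Other peaks of the chromosome 19 group differed between genotypes in the same direction, here by 2 picked after their values were seen. At chr19:12761471-12761837 the level was 12.7 FPKM in WT FSK and 1.21 FPKM in Med14 S983A FSK, listed at 0 in the other 4 libraries. At chr19:12749038-12749448 WT had 6.25, 7.45 and 9.08 FPKM in CON, Ex-4 and FSK, and Med14 S983A had 1.45 FPKM in CON and 1.03 FPKM after FSK, with 0 listed after Ex-4. The 2 shared peaks near the middle differed less. The first, chr19:12807359-12808293, had 8.38, 12.3 and 22.9 FPKM in WT and 6.79, 9.39 and 8.63 FPKM in Med14 S983A. The second, chr19:12812693-12813171, had 7.58, 7.99 and 11.6 FPKM in WT and 8.07, 8.56 and 6.07 FPKM in Med14 S983A. In CON these 2 peaks lay at like levels in both genotypes, and the FSK libraries set them apart.

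The group on chromosome X, chrX:114941924-115046395, was weak throughout. Its 104 kb held 44 peaks, all called in WT FSK, of which 24 were WT FSK-only peaks at 2.09 to 5.59 FPKM and 11 more were called in WT FSK alone under 2 FPKM. WT CON called 2 of the 44, WT Ex-4 3, Med14 S983A CON 2, Med14 S983A Ex-4 2 and Med14 S983A FSK 7. By the rule, the 24 WT FSK-only peaks could add to the count of WT FSK alone. Both FSK libraries alone called 6, with the mutant lower at each, for example 7.80 FPKM in WT FSK and 2.63 FPKM in Med14 S983A FSK at chrX:115024916-115025112, chosen after its values were seen. The single shared peak of the span fell from 4.45 FPKM in WT CON to 3.31 in WT FSK, and from 5.72 to 4.77 FPKM in the mutant. WT FSK was also the deepest library, and the part of depth in the calls of this span was not tested.

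**Figure D4:**
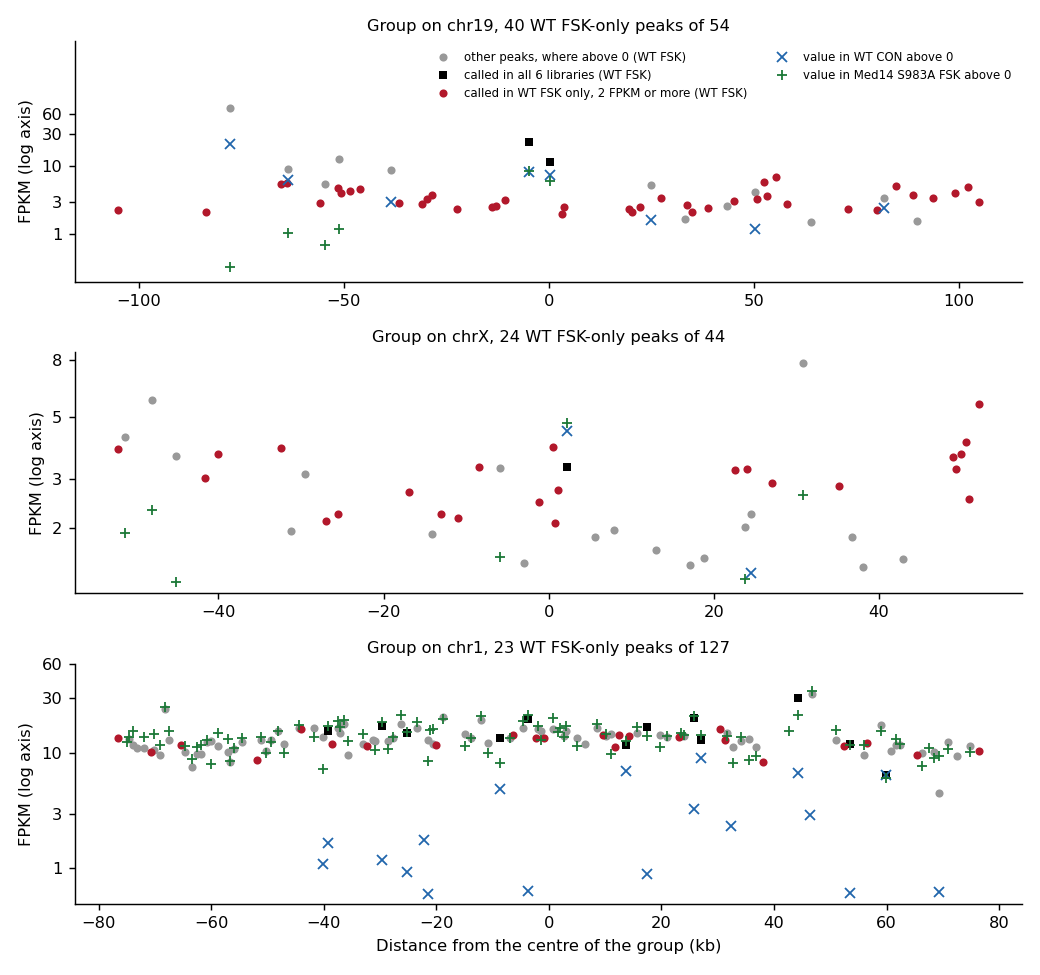
Each point is a peak, by its distance from the centre of the group in kb (horizontal) and its FPKM (vertical, log axis), in the groups with the most WT FSK-only peaks. Red points are WT FSK-only peaks, black squares peaks called in all 6 libraries and grey points other peaks, all at their WT FSK level, with blue crosses for WT CON and green plus signs for Med14 S983A FSK where above 0. On chr1 the green signs run along with the WT FSK points, while on chr19 and chrX they are few. By the rule no WT FSK-only peak was called in Med14 S983A FSK.

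WT FSK-only peaks were unevenly spread over the chromosomes. They made up 8.46% of the peaks of chromosome 17, 8.33% of chromosome 15, 7.65% of chromosome 10 and 7.499% of chromosome 4, against 4.74% of chromosome 5 and 4.53% of chromosome 9. Peaks of Med14 S983A FSK alone were fewest, with 1.69%, on chromosome 15 and most frequent, with 5.78%, on chromosome 9. The shared peaks of whole chromosomes differed between genotypes too. Their median log2 difference, Med14 S983A FSK minus WT FSK, was 0.037 over all shared peaks. It was -0.19 on chromosome 17, -0.086 on chromosome 15 and -0.045 on chromosome 4, and 0.26 on chromosome 9 and 0.22 on chromosome 5. Chromosome 10, which was rich in WT FSK-only peaks, went the other way with 0.050.

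Over the 21 chromosomes, the share of WT FSK-only peaks and this median difference correlated with Pearson's r = -0.84 and Spearman's rho = -0.67. Without the chromosomes farthest from the median, 17, 9 and 5, r was -0.65 and rho -0.48 over the other 18. With the genotype difference taken between the CON libraries instead, r was -0.81 and rho -0.75. The share of peaks of Med14 S983A FSK alone gave r = 0.68 and rho = 0.46 with the FSK difference. Without chromosomes 17, 9 and 5 these were 0.11 and 0.17, so that relation rested on those chromosomes. With the CON difference over all chromosomes they were 0.49 and 0.18. These are descriptions across chromosomes that share the same libraries, and carry no p-value.

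At a finer scale, WT FSK-only peaks went in the same direction. The genome was divided into 422 runs of 200 neighbouring shared peaks, ordered by their median log2 difference of Med14 S983A FSK from WT FSK, and parted into 5 bins. From the bin lowest in the mutant to the bin highest, WT FSK-only peaks made up 7.95%, 6.72%, 6.35%, 5.995% and 4.70% of the peaks. Peaks of Med14 S983A FSK alone made up 2.42%, 2.72%, 3.13%, 3.24% and 5.11%. The bins were not remade without chromosomes 17, 9 and 5, on which the relation of these peaks over chromosomes rested. Where shared chromatin was lower in the mutant over long stretches, WT FSK-only peaks were thus more frequent, and they were less frequent where it was higher. The FPKM of WT FSK entered both the order of the runs and the rule, and the runs were not ordered by the CON difference. The part of these long stretches in the number of WT FSK-only peaks was not tested.

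**Figure D5:**
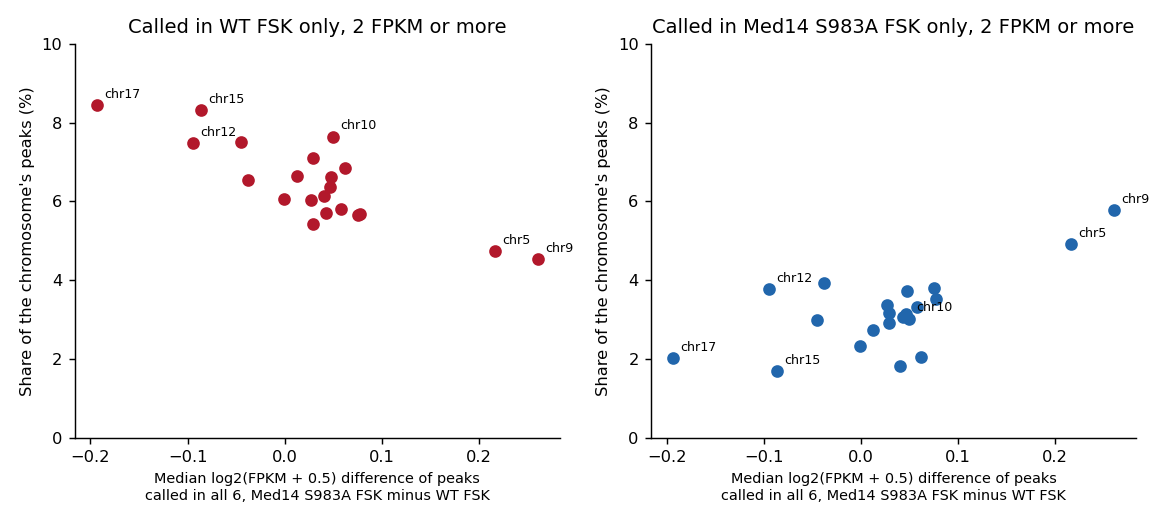
Each point is 1 of 21 chromosomes. The horizontal axis gives the median difference in log2(FPKM + 0.5) of peaks called in all 6 libraries, Med14 S983A FSK minus WT FSK, and the vertical axis the percent of the chromosome's peaks called in WT FSK only (left) or in Med14 S983A FSK only (right), at 2 FPKM or more. The left share falls from 8.46% on chr17 to 4.53% on chr9 (r = -0.84), and the right one is highest on chr9 at 5.78%.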

How the data were processed

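ATAC-seq was analysed in 6 libraries, 1 per condition. Per the labels and the study's methods, the authors used Trim Galore for trimming and BWA for alignment to rn6, removed mitochondrial, low-quality and duplicate reads by SAMtools, and ran MACS2 for peak calling. The authors deposited FPKM over peaks merged from all libraries, computed with HOMER, beside the peak length and the lists that called each peak. The methods also describe ATACseqQC, by which fragments were shifted for the Tn5 cut and split by nucleosome number, named after peak calling and before footprinting. Whether the FPKM rest on those fragments, or on pairs, the sources used here do not give.

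From these values, peaks were chosen by their calls and by 2 FPKM in WT FSK. This rule, the named peaks and the settings were chosen with earlier results of these data known. The 3 mitochondrial peaks were left out. Library depth was recovered from the steps of 4000 low values per library, all within 0.15 of a whole read. Intervals are exact Poisson (95%, counting error only). Shared peaks averaging 1 FPKM or more were compared as log2(FPKM + 0.5), with 2-fold as the size rule and no test. Distances are gaps between peak ends. Peaks named were the 10 with the highest FPKM, the 5 with the most reads, 3 on either side of 2 FPKM, the longest, the shortest, and the 3 largest groups. Other peaks are said to have been picked after their values were seen. Alternatives covered the FPKM limit, reads, distance, length, scaling, pseudocount, filter and fold. Calculations were tested on simulated data. Genes and motifs were not analysed here. Scripts ran in Python 3.11.15 with pandas 2.3.3, numpy 2.4.6, matplotlib 3.10.9 and scipy 1.17.1.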

Additional observations from a re-analysis of the deposited data

Results flagged for a closer look

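In the group at chr19:12707663-12917802, the median log2 change of the 2 peaks called in all 6 libraries was 0.99 from WT CON to WT FSK and -0.029 from Med14 S983A CON to Med14 S983A FSK. The signs differ, with 1 library on each side, and the difference was not tested. The mutant value shows no direction, since of its 2 peaks one went from 6.79 to 8.63 FPKM and the other from 8.07 to 6.07 FPKM. With each library centred on its median over shared peaks the values were 1.05 and 0.078, so the sign of the mutant value turned with the scaling.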

How the results depend on the processing

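No paired analysis was possible because only 1 library stands for a condition, and for the same reason no replicate could be left out. Alternatives that need gene starts or motifs were not run. With limits of 3 and 4 FPKM and with none, WT FSK-only peaks numbered 6706, 3800 and 21292. Without those within 1 kb of another peak they numbered 8945, and without those under 200 bp 2388. Under the same number of reads, WT FSK had 12.8, 24.5, 22.2, 18.8 and 4.30 times the single-library peaks of WT CON, WT Ex-4, Med14 S983A CON, Med14 S983A Ex-4 and Med14 S983A FSK. Over WT Ex-4 the ratio was 5.81 at 1 FPKM and 15.4 at 4 FPKM, and over Med14 S983A Ex-4 it was 8.17 at 4 FPKM. Shares above the weak end of called peaks were 91.8%, 94.3%, 82.4%, 92.7% and 88.0% at the 25th percentile and 99.3%, 99.5%, 99.6%, 99.8% and 99.8% in expected reads, in the same order of libraries, all resting on the selected value.

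The share of shared peaks near WT FSK-only peaks that opened with FSK was 8.46% in WT and 6.95% in Med14 S983A at a pseudocount of 0.1, 6.84% and 5.04% at 1, 6.11% and 4.92% within 2 kb, 6.74% and 5.51% within 50 kb, 8.37% and 7.23% with centred libraries, 8.74% and 6.65% after quantile normalization, 14.5% and 12.35% at 1.5-fold, and 1.49% and 0.945% at 4-fold. Their median log2 change was -0.085 in WT and -0.062 in Med14 S983A as deposited, -0.11 and -0.078 within 2 kb, -0.098 and -0.075 within 50 kb, -0.030 and 0.046 with centred libraries, and -0.028 and 0.011 after quantile normalization. The sign of the mutant median thus turned with the scaling, which moved the median of all shared peaks there from -0.12 to -0.016. In all 22 combinations of setting and genotype, both values were higher near WT FSK-only peaks than over all shared peaks. Groups of 5 or more numbered 40 at gaps of 10 kb and 329 at 50 kb, where 30.6% and 14.1% of the shared peaks inside opened in WT and 19.4% and 11.2% in Med14 S983A, settings added after the data were seen.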
